A study of Mus musculus with 6 samples.

Results

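Microglia that surround dying neurons, amyloid plaques or damaged myelin switch on a shared set of genes, and cells in that state are called disease-associated microglia. The genes described here are 8 that are commonly used to mark it, Cst7, Itgax, Clec7a, Lgals3, Gpnmb, Lpl, Axl and Ch25h, chosen by name and with earlier results of these data known. Of these 8, 7 are among the 32285 gene identifiers of the files, and Clec7a was not analysed here. They were followed in 6 coronal brain sections measured with 10x Visium, an array of barcoded spots that captures polyadenylated RNA from a tissue section and counts it as unique molecular identifiers (UMIs). The sections came from male C57BL/6J mice aged 6 months (young), 18 months (middle) and 21 months (old), with 2 sections per age from 2 males per age. The labels name no modified gene and no treatment for any of the 6 sections, which all come from the same inbred strain. The sections young 1, young 2, middle 1 and old 1 lay on slide 1, and middle 2 and old 2 on slide 2, so slide and age partly overlap.

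The 6 sections held 2573 to 2973 spots and 60938938 to 77557934 UMIs, and both old sections were the shallowest, with median UMIs per spot of 21766 and 20370 against 25904.5 to 30093 in the others. All sections share the barcodes of the slide grid (1919 of 3389 in all 6), which mark positions and not cells. A spot covers several cells of different types, so a gene's UMIs in a spot cannot be assigned to a cell, and fewer cells of a type and less RNA per cell cannot be told apart. Levels are given as CPM, a gene's UMIs per 1000000 UMIs of all genes in the spots summed.

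Homeostatic microglia hold genes such as P2ry12, Tmem119 and Cx3cr1. On contact with lipid-rich debris the receptor Trem2, with its signalling adaptor Tyrobp, drives a programme of phagocytosis, lysosomal digestion and lipid handling, and this programme is known to appear in white matter, where myelin debris accumulates with age. The members fill different places in it. Itgax, Axl and Clec7a are surface receptors. Lgals3 is a secreted lectin, Gpnmb a membrane glycoprotein of the endolysosome, Cst7 an inhibitor of lysosomal proteases, Lpl a lipase and Ch25h an enzyme that makes an oxysterol from cholesterol.

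For this reason each section was divided by myelin. Myelin-rich spots were the 10% of a section's spots with the largest share of UMIs from 11 myelin genes (Mbp, Mobp, Mog and others), 257 to 297 spots per section, and all remaining spots were the other spots. Levels by age and inside and outside these spots are what the genes were chosen on, so their values are a description and carry no test. The myelin-rich spots were shallower than the rest (median 9296.5 to 15174 UMIs against 21458.5 to 32084.5), and the myelin share at which a spot entered the set was 3.86% and 4.44% in young, 2.83% and 2.41% in middle and 3.27% and 3.49% in old sections.

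The promoters of the 4 members that lay higher in both old than in both young sections in whole sections and were concentrated in myelin-rich spots (Cst7, Itgax, Lgals3, Gpnmb) are shown together with that of Ch25h, which moved the other way. Each is the 250 bases before the RefSeq start on GRCm38.p6, 5′ to 3′ on the gene's own strand. Capitals mark matches to the motifs searched on both strands. The windows are chr2:150570165-150570414 (plus strand) for Cst7, chr7:128129300-128129549 (plus) for Itgax, chr14:47373610-47373859 (plus) for Lgals3, chr6:49036268-49036517 (plus) for Gpnmb and chr19:34475149-34475398 (minus) for Ch25h.
Cst7: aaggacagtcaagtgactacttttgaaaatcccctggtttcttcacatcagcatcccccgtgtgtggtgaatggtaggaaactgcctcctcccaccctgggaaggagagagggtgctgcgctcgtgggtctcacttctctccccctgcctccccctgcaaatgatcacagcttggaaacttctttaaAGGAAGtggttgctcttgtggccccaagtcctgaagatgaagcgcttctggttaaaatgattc
Itgax: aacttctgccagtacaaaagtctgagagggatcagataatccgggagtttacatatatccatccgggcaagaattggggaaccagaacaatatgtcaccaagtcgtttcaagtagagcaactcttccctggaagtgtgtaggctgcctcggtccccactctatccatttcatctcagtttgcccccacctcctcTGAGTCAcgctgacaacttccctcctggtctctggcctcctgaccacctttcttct
Lgals3: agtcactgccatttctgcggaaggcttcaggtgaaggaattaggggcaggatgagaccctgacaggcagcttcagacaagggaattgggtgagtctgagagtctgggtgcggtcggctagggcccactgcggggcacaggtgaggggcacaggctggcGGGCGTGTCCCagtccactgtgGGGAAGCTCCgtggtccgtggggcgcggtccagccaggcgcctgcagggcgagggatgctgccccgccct
Gpnmb: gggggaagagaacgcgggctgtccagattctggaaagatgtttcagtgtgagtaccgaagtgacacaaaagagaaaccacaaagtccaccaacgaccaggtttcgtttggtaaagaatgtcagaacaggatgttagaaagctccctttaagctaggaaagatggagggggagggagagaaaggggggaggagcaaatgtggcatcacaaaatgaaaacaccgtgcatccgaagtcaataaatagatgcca
Ch25h: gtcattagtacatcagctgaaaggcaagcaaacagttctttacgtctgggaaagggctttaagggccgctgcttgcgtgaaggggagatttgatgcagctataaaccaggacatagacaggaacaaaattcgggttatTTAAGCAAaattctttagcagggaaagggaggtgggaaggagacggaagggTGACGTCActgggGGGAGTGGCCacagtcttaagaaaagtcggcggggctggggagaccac
The motifs searched were the PU.1 core AGGAAG, AP-1 TGANTCA, the E-box CACGTG, the cyclic AMP response element TGACGTCA, C/EBP TTGCNNAA and NF-kB (GGG, any 5 bases, CC), none of which contains another. Cst7 had 1 match, the PU.1 core 63 bases before the start. Itgax had 1, AP-1 at 56 bases. Lgals3 had 3 NF-kB matches, at 92, 91 and 70 bases, of which the first 2 overlap. Ch25h had the cyclic AMP element at 61 bases, C/EBP at 112 and NF-kB at 48. The Gpnmb window held none of these letters. No match was shared by all 4 of the shown members that were higher with age. Axl, also higher in both old than in both young whole sections, is not shown. It had the PU.1 core at 131 bases and NF-kB at 81. Of all 32851 RefSeq promoter windows of this length, 29.5% held the PU.1 core, 6.75% AP-1, 6.02% the E-box, 1.55% the cyclic AMP element, 9.56% C/EBP and 45.8% NF-kB. A match describes letters only. Sequences were matched for 6 of the 7 members; the sixth is Axl, and Lpl is named only.

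Cst7 (cystatin F, chr2:150570415-150578944) differed widely between ages. In myelin-rich spots young sections held 4 and 4 UMIs, middle sections 33 and 57, and old sections 86 and 156, or 1.25 and 1.35, 7.34 and 14.1, and 26.1 and 44.4 CPM. The ages did not overlap and stood in the order young, middle, old. The old level was 27.3 times the young (95% interval 13.6 to 64.0, from counting error only) and 3.37 times the middle (2.63 to 4.34). The share of myelin-rich spots with at least 1 UMI was 1.56% and 1.43% in young, 10.2% and 14.3% in middle and 21.5% and 26.6% in old sections. The fitted log2 change between old and young was 4.64 (SE 0.49) in edgeR's model over all 6 sections.

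Outside the myelin-rich spots Cst7 was also higher in age, at a far lower level. Its other-spot level was 0.190 and 0.161 CPM in young, 1.06 and 1.46 in middle and 1.55 and 2.33 in old sections, again without overlap. The ratio of myelin-rich to other level was 6.60 and 8.40 in young, 6.93 and 9.67 in middle, and 16.8 and 19.0 in old sections. Counting error was wide in the young, with 95% intervals of 1.58 to 21.0 and 1.98 to 27.7. In old 2, 53.8% of all Cst7 UMIs fell in the myelin-rich spots, which held 5.77% of that section's UMIs. Cst7 was also uneven among these spots: 1 spot of old 2 held 21 of the 156 UMIs, and without the 5 richest spots the level there was 32.7 CPM, still above every other section.

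Itgax (CD11c, the integrin alpha X chain, chr7:128129547-128150657) was nearly undetected in young tissue. Its myelin-rich UMIs were 2 and 1 in young, 23 and 16 in middle and 31 and 57 in old sections, that is 0.627 and 0.338, 5.11 and 3.96, and 9.40 and 16.2 CPM. The ages did not overlap. With 3 young UMIs in all, the ratio of old to young of 26.5 has a counting interval of 8.77 to 131, while old to middle was 2.83 times (1.92 to 4.23). Positive spots made up 0.778% and 0.357% in young, 7.30% and 5.0% in middle, and 8.75% and 13.6% in old sections. In other spots Itgax stayed below 0.7 CPM in every section, from 0.0678 and 0.0670 in young to 0.426 and 0.697 in old, and middle 1 with 0.418 was close to old 1. The old sections held 52.5% and 58.8% of their Itgax UMIs in myelin-rich spots.

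Lgals3 (galectin-3, a lectin that binds damaged membranes and opsonises debris, chr14:47367751-47386160) was present in young tissue too. Myelin-rich spots held 22 and 19 UMIs in young, 78 and 61 in middle and 102 and 185 in old sections, or 6.90 and 6.42, 17.3 and 15.1, and 30.9 and 52.6 CPM. These did not overlap between ages, and old was 6.32 times young (4.55 to 9.0). The other-spot level of 1.78 and 1.47 CPM in young, 1.35 and 2.13 in middle and 2.68 and 2.89 in old sections differed less, in a set that includes the border spots described further on. The myelin-rich to other ratio therefore went from 3.88 and 4.35 in young to 11.6 and 18.2 in old, with middle 1 at 12.8 and middle 2 at 7.08.

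Gpnmb (glycoprotein NMB, a target of the lysosomal transcription factors of the MiT family, chr6:49036546-49070929) separated old from both other ages but not middle from young. In myelin-rich spots it had 21 and 9 UMIs in young, 29 and 30 in middle and 58 and 116 in old sections, equal to 6.58 and 3.04, 6.45 and 7.43, and 17.6 and 33.0 CPM. Young 1 lay above middle 1, and both old sections lay above all others. Old was 5.24 times young (3.54 to 7.99) and 3.69 times middle (2.73 to 5.05), whereas middle over young was 1.42 (0.899 to 2.28), an interval that includes 1. Outside myelin the old and young sections overlapped, with 1.38 and 2.09 CPM in young and 2.08 and 3.41 in old.

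Lpl (lipoprotein lipase, which frees fatty acids from triglyceride-rich particles, chr8:68880491-68907448) was higher with age in myelin-rich spots while its level in other spots overlapped between ages. There its UMIs were 17 and 15 in young, 58 and 41 in middle and 55 and 94 in old sections, or 5.33 and 5.07, 12.9 and 10.2, and 16.7 and 26.7 CPM. The ages did not overlap, and old was 4.20 times young (2.85 to 6.37). Most Lpl lay elsewhere: the other spots held 967 and 1177 UMIs in young, 942 and 855 in middle and 893 and 728 in old sections, or 13.1 and 15.8, 13.1 and 12, and 13.6 and 12.7 CPM, which overlapped. The gene thus went from lower in myelin-rich than in other spots in young sections (ratios 0.406 and 0.321) to about even in middle (0.983 and 0.846) and to 1.23 and 2.11 in old. In old 1 the interval of that ratio, 0.918 to 1.61, includes 1. Myelin-rich spots never held more than 11.4% of a section's Lpl UMIs.

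Axl (a receptor tyrosine kinase of the Tyro3, Axl and Mertk family that recognises phosphatidylserine through the bridging ligands Gas6 and Pros1, chr7:25757273-25788705, minus strand) was spread through both spot sets. Its myelin-rich UMIs were 94 and 113 in young, 176 and 141 in middle and 156 and 215 in old sections, or 29.5 and 38.2, 39.1 and 34.9, and 47.3 and 61.2 CPM. Young and middle overlapped, while both old sections lay above the other 4. Old was 1.62 times young (1.36 to 1.93). In other spots the 6 sections ranged from 23.5 to 26.5 CPM and the old to young ratio was 1.06 (1.01 to 1.11).

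Ch25h (cholesterol 25-hydroxylase, a single-exon interferon-inducible gene, chr19:34473778-34475164, minus strand) went against the label. Whole sections held 282 and 126 UMIs in young, 30 and 30 in middle and 40 and 36 in old sections. Both young sections lay above all others, and the old to young ratio in whole sections was 0.221 (0.171 to 0.283). Young 1 alone carried more than all 4 middle and old sections. The fitted log2 change between old and young was −2.23 (SE 0.42) and did not pass (edgeR adjusted p = 0.145). Myelin-rich spots held 15 and 11, 8 and 1, and 6 and 11 UMIs in the same order of ages, or 4.70 and 3.72, 1.78 and 0.248, and 1.82 and 3.13 CPM. Of the 11 in old 2, 9 lay in 5 spots.

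**Figure D1:**
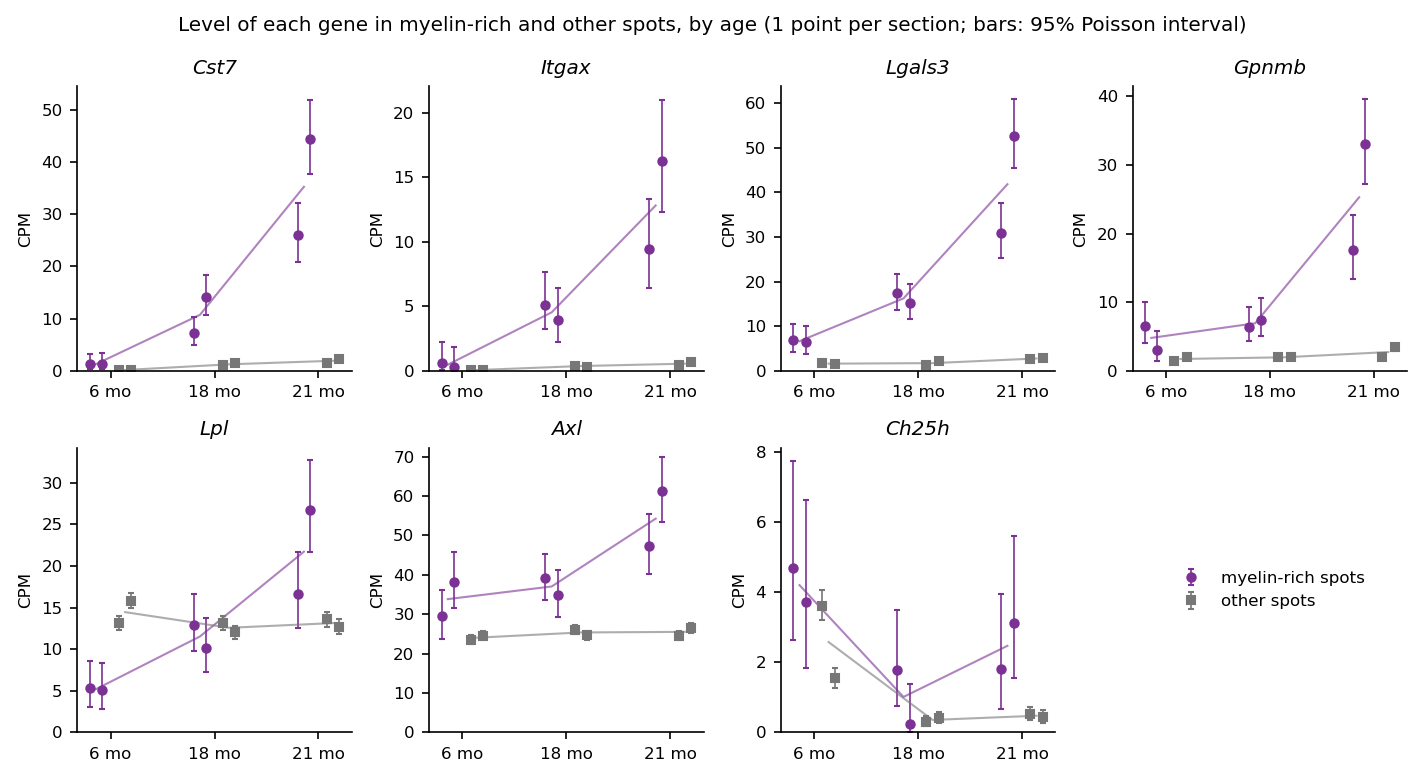
Level of each of the 7 measured members in myelin-rich and in other spots of the 6 sections, in CPM, one point per section with its 95% Poisson interval. Cst7 and Itgax stand at or below 1.35 CPM in both young sections and above 9 CPM in both old sections within myelin-rich spots, while Ch25h in the other spots is highest in young 1 at 3.62 CPM.

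Against all genes, these differences were set beside the share that passed the same criterion. Both old sections exceeded both young in CPM for 5 of 7 members in whole sections, where 27.7% of all genes with any UMI did so, for 6 of 7 in myelin-rich spots (26.0% of all genes) and for 4 of 7 in other spots (26.7%). In edgeR's quasi-likelihood fit with Benjamini-Hochberg adjustment over all genes, an adjusted p under 0.05 between old and young was reached by 2 of 7 members in whole sections (0.164% of 17673 genes tested), by 6 of 7 in myelin-rich spots (3.11% of 12755 genes) and by 1 of 7 in other spots (0.119% of 17577). In myelin-rich spots middle and young differed by that rule for 5 of 7 members, 4 higher and Ch25h lower (10.8% of genes), and old and middle for 4 of 7, all higher (1.09%). The members' choice rests on these contrasts, so nothing is read from the counts. The median fitted log2 change of the members was 2.29 in myelin-rich spots. Cst7 and Itgax passed the filter on low counts through the middle and old sections, so a difference between the ages was needed for them to be fitted there at all.

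The fitted change with age was more positive in myelin-rich than in other spots of the same sections for all 7 members. A model of both spot sets with the section as a block gave the log2 difference between the old-young change inside and outside. It was 2.18 (SE 0.29) for Lpl, 1.83 (SE 0.34) for Lgals3, 1.70 (SE 1.13) for Itgax and 1.66 (SE 0.39) for Gpnmb. For Ch25h it was 1.62 (SE 0.66), for Cst7 1.29 (SE 0.65) and for Axl 0.58 (SE 0.15). By the same call rule 4 of 7 members passed, where 2.21% of 16991 genes did, and 2 of 7 passed without old 2. In the fit of all 6 sections Lpl, Lgals3, Gpnmb and Axl passed. Itgax, Ch25h and Cst7 did not (edgeR adjusted p = 0.613, 0.248 and 0.434). The members were chosen on this contrast too, so nothing is read from the count. The sign means different things among them. For Lpl the outside change was −0.19 and the inside change 1.97, whereas Cst7 was higher on both sides, by 3.40 and 4.64. The fitted change of Ch25h was negative on both sides, −0.84 inside (SE 0.56) and −2.49 outside (SE 0.47). Neither passed in edgeR (adjusted p = 0.519 and 0.198).

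Slide and age overlap, and each slide gave the same direction for the 6 members other than Ch25h. On slide 1, with 1 old and 2 young sections, the log2 difference of CPM in myelin-rich spots was 4.32 for Cst7, 4.28 for Itgax, 2.22 for Lgals3, 1.87 for Gpnmb, 1.68 for Lpl and 0.48 for Axl. On slide 2, with 1 old and 1 middle section, old exceeded middle by 1.65, 2.03, 1.8, 2.15, 1.40 and 0.81 for the same genes. Ch25h differed by −1.21 on slide 1 between old and young and by 3.66 on slide 2 between old and middle, where the middle section held 1 UMI. Old 2, on slide 2, had the highest myelin-rich level of all 6 sections for each of the 6. Without it, the fitted log2 change in myelin-rich spots was 2.13 for Lgals3 against 2.56 with it, 1.76 for Gpnmb against 2.29 and 4.10 for Itgax against 4.54.

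Depth differed between sections, so each spot was also thinned to 5000 UMIs, leaving shallower spots out. The share of myelin-rich spots with Cst7 was then 0.407% and 0.797% in young, 4.10% and 4.78% in middle and 13.5% and 15.4% in old sections. For Lgals3 it was 2.44% and 2.39%, 6.34% and 5.51%, and 13.5% and 21.2%. For both genes the ages kept the order of the unthinned shares. Gpnmb after thinning had 3.25% and 1.20%, 2.99% and 4.41%, and 7.27% and 12.7%, with young and middle overlapping as before. Lpl had 2.85% and 1.20%, 8.58% and 2.94%, and 9.09% and 9.65%, and Axl 11% and 17.1%, 19.8% and 16.2%, and 18.9% and 27.0%, where old 1 lay between the middle sections, as it did unthinned.

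A gradient with myelin content was visible beyond the split into 2 sets. When spots of each section were divided into deciles by myelin share, mean Cst7 in old sections was 0.437 CPM in the lowest decile, 10.4 in the ninth and 35.3 in the highest. The same deciles of young sections gave 0.137, 0.355 and 1.3 CPM. Gpnmb in old sections was 4.41 CPM in the ninth decile and 25.4 in the highest, against 3.99 and 4.81 in young, so old exceeded young several-fold in the highest decile and by little in the ninth. Lpl formed a U shape in old sections, from 29.9 CPM in the lowest decile through 6.51 in the seventh to 21.8 in the highest. In young sections Lpl in these deciles was 28.3, 10.1 and 5.2 CPM, a fall without the second arm.

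**Figure D2:**
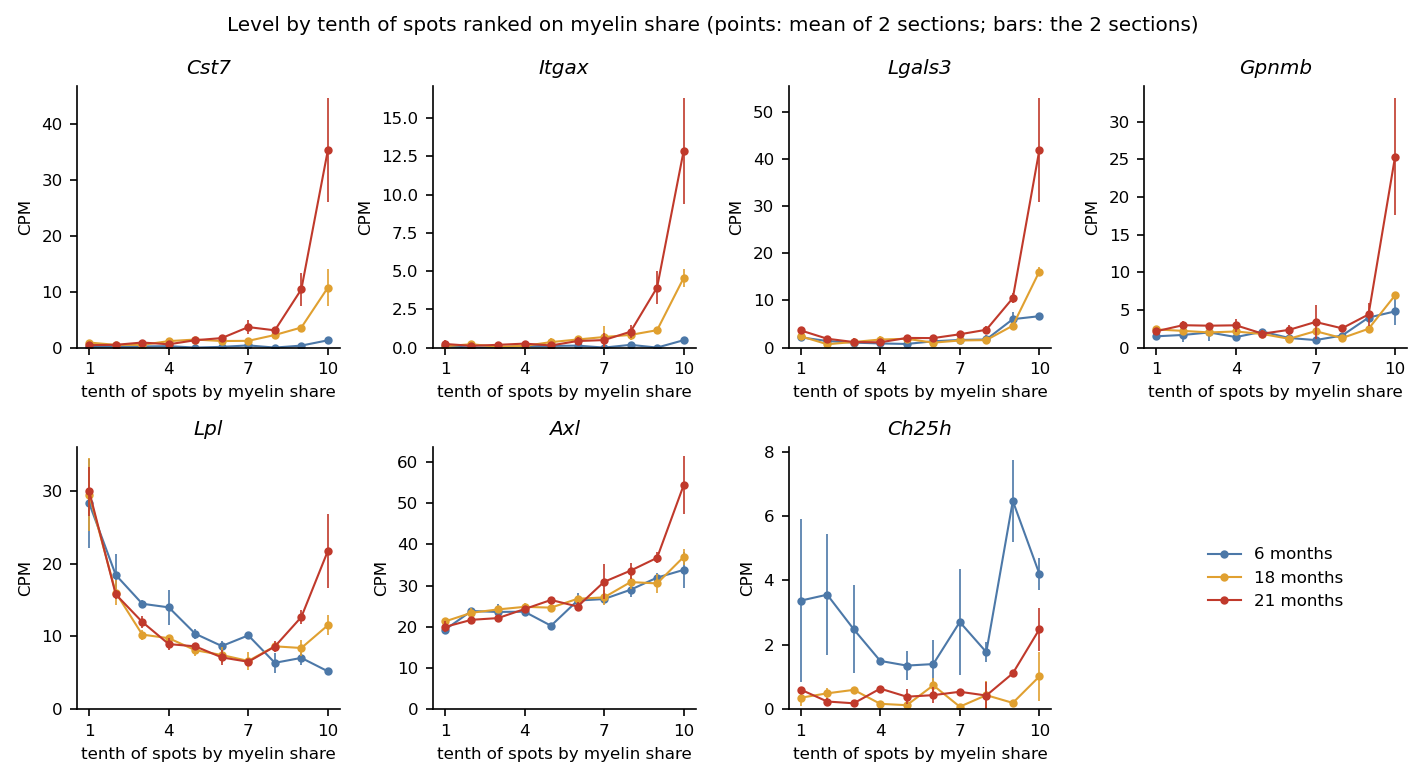
Mean level of each member, in CPM, in deciles of spots ordered by myelin share (1 is lowest, 10 highest), for young, middle and old sections (n = 2 each; bars run from the lower to the higher section). Cst7, Itgax, Lgals3 and Gpnmb of old sections lie highest in the last decile, and Lpl of old sections is high at both ends.

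Regional spots gave the members' other sites. Regions were the 5% of spots with the largest share of UMIs from each regional marker list, and values are means over 2 sections. Ch25h in young sections was highest in meningeal spots, at 28.0 ± 22.8 CPM (SD, n = 2; 185 UMIs), against 2.04 in middle and 1.5 in old (12 and 8 UMIs). The SD shows how far the 2 young sections differed. Lgals3 was high in choroid plexus spots at every age, with 22.7, 25.4 and 25.3 CPM in young, middle and old, and in meningeal spots with 16.5, 19.6 and 19.5 CPM. It therefore differed little with age at the borders of the brain while it differed several-fold in myelin-rich spots.

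Lpl was high in hippocampal spots, at 40.7, 43.8 and 39.9 CPM in young, middle and old, and in striatal spots at 36.7, 32.6 and 32.1, and low in thalamic spots at 1.88, 2.52 and 3.53. In hippocampal and striatal spots the ages differed by less than the SD of the young sections (13.4 and 12.8 CPM, n = 2). Lpl is known to be made by neurons of these regions as well as by microglia. Axl was highest in meningeal spots (41.6, 43.3 and 44.9 CPM) and lowest in hippocampal ones (18.1, 20.9 and 18.5). Gpnmb was higher in choroid plexus spots of old (12.5 ± 2.30 CPM) than of young (5.62 ± 0.415) sections, and in meningeal spots (8.75 ± 1.11 against 4.18 ± 0.783; all SD, n = 2). Cst7 in choroid plexus spots was 0.553 ± 0.055, 5.30 ± 0.182 and 6.03 ± 5.58 CPM in young, middle and old (SD, n = 2), and the 2 old sections differed widely.

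**Figure D3:**
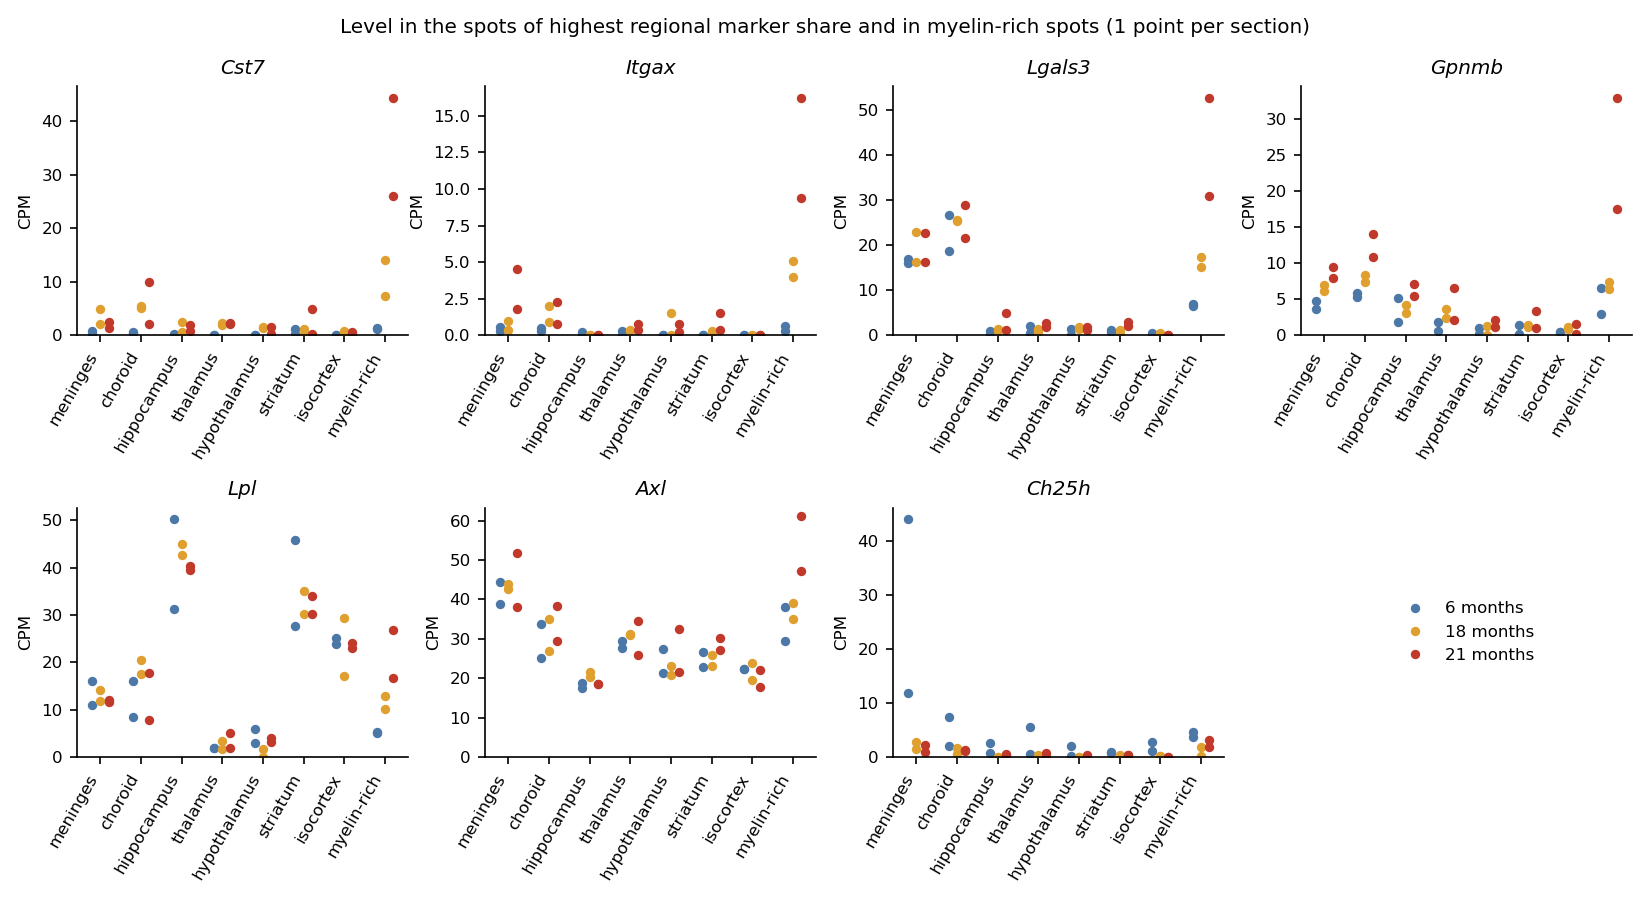
Level of each member, in CPM, in the 5% of spots with the largest share of each regional marker list, by age (n = 2 sections per age). Ch25h stands out in young meninges at 28.0 CPM, Lgals3 in choroid plexus and meninges at all ages, and Lpl in hippocampus and striatum.

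Some myelin-rich spots also carried markers of brain borders. The summed choroid plexus markers in myelin-rich spots ranged over 964 to 1957 CPM in young, 3223 to 7128 in middle and 1784 to 3836 in old sections. With all spots in the 5% of largest choroid plexus, meningeal or ependymal share left out, a choice made after the data had been seen, Cst7 was 0.971 and 0.913 CPM in young, 6.88 and 12.7 in middle and 28.4 and 46.9 in old sections. Lgals3 was then 0.971 and 3.20 CPM in young, 8.94 and 13.4 in middle and 23.9 and 48.5 in old, so its young level was well below that with these spots. Without these spots the fitted log2 change of Lgals3 between old and young was 3.98 in place of 2.56. In other spots without the border Lgals3 was 0.486 and 0.551 CPM in young, 0.598 and 0.982 in middle and 1.55 and 1.74 in old sections, a fitted log2 change of 1.61 in place of 0.72. In myelin-rich spots without the border Gpnmb was 4.37 and 2.28, 3.78 and 5.54, and 14.8 and 29.7 CPM. Lpl was 5.83 and 5.48, 9.63 and 9.78, and 17.3 and 29.3, and both genes kept both old sections above the others. Ch25h there was 2.91 and 2.74 CPM in young, 0.688 and 0.326 in middle and 2.47 and 3.13 in old. Its old and young sections then overlapped, with 6 and 6 UMIs in young and 6 and 8 in old. In other spots without the border Ch25h was 1.66 and 1.15 CPM in young sections (113 and 79 UMIs). Middle sections had 0.314 and 0.272 CPM there and old sections 0.466 and 0.396, so both young sections stayed above.

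**Figure D4:**
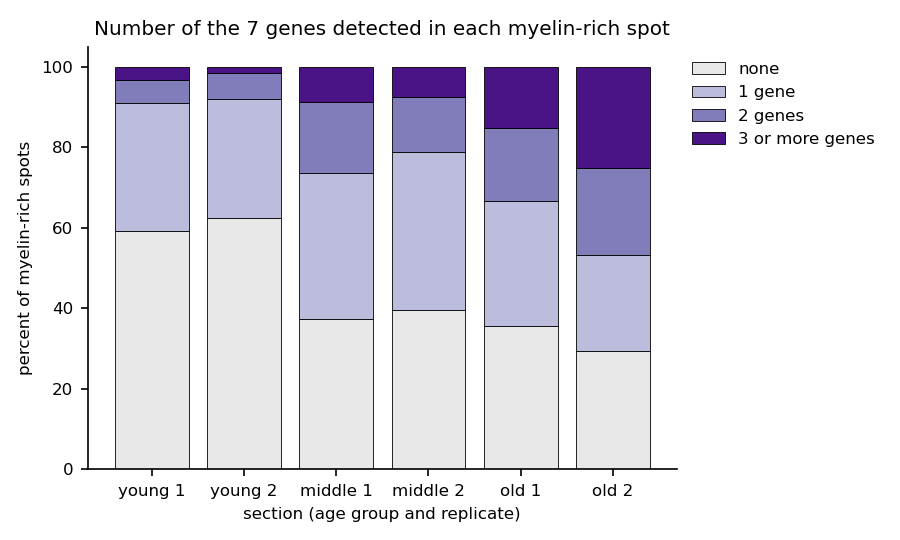
Share of myelin-rich spots of each section with UMIs of 0, 1, 2 or at least 3 of the 7 members. The share with at least 3 is 3.11% and 1.43% in young, 8.76% and 7.50% in middle and 15.2% and 25.2% in old sections.

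Spots with several members made up a larger share in older sections. At least 1 of the 4 measured core members (Cst7, Itgax, Lgals3, Gpnmb) was detected in 11.7% and 8.57% of myelin-rich spots in young, 32.8% and 31.4% in middle and 46.1% and 54.9% in old sections. At least 2 were detected in 1.56% and 1.43%, 7.66% and 7.14%, and 15.8% and 29.0%. All 4 core members met in 1 spot of old 1 and 5 spots of old 2. In old 2, among the 76 spots with Cst7, Lpl was detected in 38.2% and Axl in 68.4%, against 12.9% and 36.2% of the 210 without. In old 1 the same shares were 29.7% and 54.7% of 64 spots against 9.01% and 35.2% of 233. Spots with Cst7 were deeper, with median UMIs of 14833 against 10170.5 in old 2 and 10887.5 against 9222 in old 1. With each spot thinned to 5000 UMIs, Lpl was detected in 12 of 40 spots with Cst7 against 5.94% of 219 without in old 2, and in 21.6% of 37 against 7.14% of 238 in old 1. Axl was detected in 52.5% against 22.4% and 32.4% against 16.8%. In the middle sections, with 11 and 13 such spots, thinned Lpl was at 9.09% against 8.56% and 15.4% against 2.32%. Thinned Axl was at 18.2% against 19.8% and 7.69% against 16.6% there, so the direction of the old sections was not seen for Axl.

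Homeostatic microglia genes, taken as a sum, were higher in old myelin-rich spots as well. The summed level of 17 homeostatic microglia genes in myelin-rich spots was 708 to 797 CPM in young, 861 to 877 in middle and 1085 to 1208 in old sections, without overlap. Per 1000 UMIs of these genes, Cst7 was 1.77 and 1.69 in young, 8.37 and 16.4 in middle and 24.0 and 36.7 in old sections, an old to young ratio of 17.9. The corresponding ratios were 17.3 for Itgax, 4.13 for Lgals3, 3.42 for Gpnmb and 2.75 for Lpl. For Axl the ratio was 1.06, with 41.6 and 47.9 in young and 43.6 and 50.6 in old, so Axl kept pace with the homeostatic genes. Their own marker P2ry12, an ADP receptor, did not pass the test between old and young (log2 −0.04, SE 0.14, edgeR adjusted p = 0.936), nor did Tmem119 (0.25, SE 0.14, adjusted p = 0.420).

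The fitted change of the 17 homeostatic genes in old against young myelin-rich spots was positive for 11, and the list did not move as one. The median log2 was 0.37, against 0.00 over all genes tested. By the call rule 5 of the 17 passed as higher and none as lower, where 3.11% of all genes passed. The 5 included Fcrls (log2 1.33, SE 0.19, edgeR adjusted p = 0.000234), the fractalkine receptor Cx3cr1 (0.91, SE 0.15, adjusted p = 0.000853), Csf1r and Olfml3. The mean Cx3cr1 level was 25.8, 36.0 and 51.8 CPM in young, middle and old sections. Between old and middle 3 of the 17 rose, where 1.09% of all genes passed.

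Other genes of the disease-associated programme were read from a list of 30 drawn up with these data known. In old against young myelin-rich spots 17 of 30 rose, 13 did not pass and none fell (median log2 1.12). By the same rule 3.11% of all genes tested passed. The list was drawn up with these data known, so nothing is read from its counts by age here or below. Summed astrocyte markers in the same spots were 2780 to 2930 CPM in young, 3113 to 3193 in middle and 3780 to 4234 in old sections, also without overlap, and their part in genes that astrocytes share, such as Apoe, was not tested. Trem2, the lipid-sensing receptor of the programme, had mean levels of 45.8, 88.9 and 149 CPM in young, middle and old (log2 1.61, SE 0.13, edgeR adjusted p = 6.29e-08). Its adaptor Tyrobp had 135, 238 and 383 CPM (1.42, SE 0.12, adjusted p = 1.20e-06). Both also rose from young to middle (by 0.87 and 0.73) and from middle to old (0.74 and 0.69), with edgeR adjusted p-values of 0.000174, 0.000763, 0.00294 and 0.00848.

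The lipid carrier Apoe rose from 3092 to 5744 CPM (log2 0.81, SE 0.12, edgeR adjusted p = 0.00022), the lysosomal glycoprotein Cd68 from 16.3 to 51.7 CPM (1.58, SE 0.21, adjusted p = 0.000123) and the toll-like receptor gene Tlr2 from 2.29 to 11.5 CPM (2.24, SE 0.38, adjusted p = 0.00109). The chemokine genes Cxcl16 (2.19, SE 0.32, adjusted p = 0.000227) and Ccl4 (2.47, SE 0.47, adjusted p = 0.00671) rose as well. Ccl4 had 2.18 ± 2.64 CPM in young (SD, n = 2), and its log2 change was 1.57 without young 1 and 5.09 without young 2. Spp1, osteopontin, had a larger but uneven difference, with 9.55 ± 1.56 CPM in young and 82.1 ± 63.3 in old (SD, n = 2; log2 3.01, SE 0.97, adjusted p = 0.320), and did not pass. Between middle and young 8 of the 30 rose and 1 fell, the tetraspanin Cd9 (log2 −0.53, SE 0.12, edgeR adjusted p = 0.00407). Between old and middle 11 of the 30 rose, where 1.09% of all genes passed. Among them was Cd52 with 101 against 50.5 CPM (log2 1.00, SE 0.18, edgeR adjusted p = 0.0216).

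Of all genes tested, 0.164% passed between old and young in whole sections and 0.119% in other spots. In whole sections 2 of the 30 disease-associated genes rose, Trem2 (log2 0.82) and Tyrobp (0.71), both at an edgeR adjusted p of 0.0293. The same 2 rose in other spots, by 0.60 and 0.53 (edgeR adjusted p = 0.0483 and 0.0415). These calls were less stable: each gene passed in 7 of 12 alternatives in whole sections and in 7 of 16 in other spots, where the edgeR or DESeq2 adjusted p reached 0.383. The difference of the age change between myelin-rich and other spots passed for 13 of the 30, all with the larger change in myelin-rich spots. Of all genes tested for that difference 2.21% passed.

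**Figure D5:**
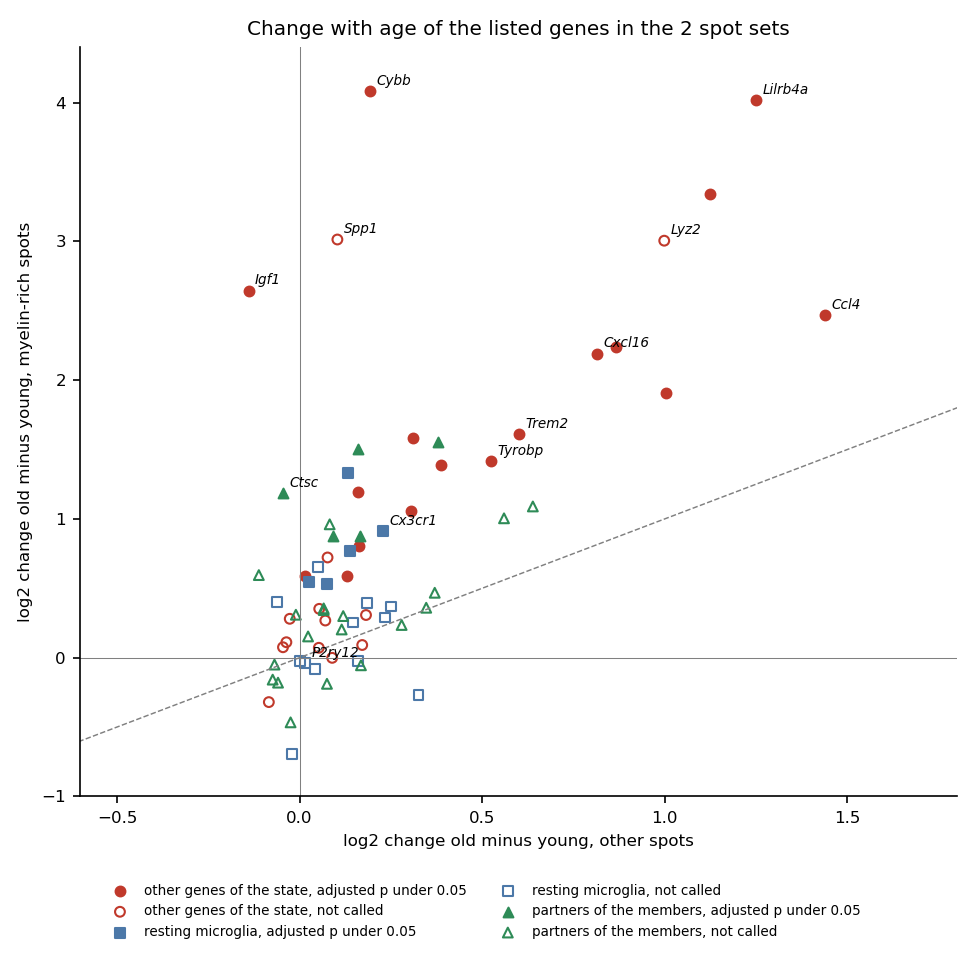
Log2 change between old and young sections in other spots (horizontal) and in myelin-rich spots (vertical) for the genes of the disease-associated, homeostatic and partner lists, from edgeR; filled points passed the test in myelin-rich spots, and the dashed line marks equal change. Trem2 lies well above the line with 0.60 outside and 1.61 inside, and P2ry12 lies near 0 on the vertical axis at −0.04.

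Partners of the members were read in the same spots. Itgb2, the beta chain that pairs with Itgax and with Itgam, rose from 9.84 ± 3.28 to 30.4 ± 7.35 CPM (SD, n = 2; log2 1.55, SE 0.23, edgeR adjusted p = 0.000325), and Itgam rose by 0.88. Ctsc, a cathepsin that cystatin F inhibits, rose from 11.2 to 27.0 CPM (1.19, SE 0.28, adjusted p = 0.0295). Cd44, a surface receptor of hyaluronan and osteopontin, rose by 1.5 (SE 0.33, adjusted p = 0.0268). Of the Axl ligands, Pros1 rose by 0.87 while Gas6 did not pass, with 37.0 CPM in young and 48.9 in old (0.31, SE 0.17, adjusted p = 0.419). The galectin-3 binding protein gene Lgals3bp had 1.09 (SE 0.28, adjusted p = 0.0689) in myelin-rich spots and did not pass there, and it rose by 0.64 in other spots (adjusted p = 0.0322). Syk, the kinase downstream of Clec7a, had 0.20 (SE 0.57, adjusted p = 0.915), and Gpr183, the receptor of oxysterols made from the product of Ch25h, had 1.00 (SE 0.57, adjusted p = 0.421). In all 5 of the 24 partners tested passed as higher and none as lower (median log2 0.35), and the fitted change was positive for 18. Of all genes tested 3.11% passed between old and young. Between middle and young Itgb2 rose by 0.81 (edgeR adjusted p = 0.0360) and Tyro3 fell by 0.37 on the log2 scale (edgeR adjusted p = 0.0411). Tyro3 averaged 156, 128 and 147 CPM in young, middle and old sections. The summed myelin genes were also lowest in the middle sections, and their part in the fall of Tyro3 was not tested.

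Of 11 genes of cholesterol and lipid handling tested, 1 rose between young and old, where 3.11% of all genes passed. It was the cholesterol exporter Abca1 (log2 0.59, SE 0.16, edgeR adjusted p = 0.0376), and the median of the 11 was 0.03. Between young and middle Apoc1 rose by 1.09 (edgeR adjusted p = 0.0232), and the lysosomal cholesterol transporter Npc1 fell by 0.44 on the log2 scale (edgeR adjusted p = 0.00375). Npc1 averaged 264, 207 and 250 CPM in young, middle and old sections. The part of the lower summed myelin level of the middle sections in this was not tested.

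Markers of other immune cells in myelin-rich spots were as follows. The class II antigen presentation and dendritic cell list summed to 7.52 to 11.1 CPM in young, 33.2 to 34.7 in middle and 44.3 to 49.8 in old sections. Between old and young, where 3.11% of all genes passed, 4 of its 5 genes tested rose, Cd74, H2-Aa, H2-Ab1 and H2-Eb1. The last 3 had young means of 0.808, 1.48 and 0.495 CPM and passed the filter on low counts through the later ages, and 5 of the 10 listed genes did not pass it. Cd74, the invariant chain, went from 3.58 to 15.1 to 24.8 CPM (old against young log2 2.69, SE 0.27, edgeR adjusted p = 1.38e-06). The dendritic markers Xcr1, Clec9a and Ccr7 were at 0 in the myelin-rich spots of all 6 sections, and so were Ly6g and Chil3 of the monocyte and neutrophil list (a count of 0 allows up to 0.667 to 1.01 CPM). That list summed to 5.64 to 5.74 CPM in young, 3.47 to 4.22 in middle and 2.12 to 3.13 in old sections. Border macrophage markers summed to 15.2 to 16.0 CPM in young, 19.3 to 21.8 in middle and 16.4 to 33.3 in old, with 1 to 3 of the 12 at 0 in a section, and T cell markers to 2.51 to 3.72, 6.67 to 10.2 and 4.85 to 14.8 CPM. The part of these cells in the members' levels was not tested.

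Among the named genes, Trem2, Tyrobp, Cd68, Fcrls and Cx3cr1 passed between old and young in myelin-rich spots under all 16 alternative settings, Cd44 under 10 of 15, Ctsc under 9 of 15, Ccl4 under 10 of 15 and Abca1 under 9 of 16. The sections old 2 and young 1 moved several counts: without old 2, 1 partner gene passed in place of 5, and 3 homeostatic genes in place of 5. Without young 1, 2 partners and 3 homeostatic genes passed.

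The spots that held the core members were then compared with their neighbours in myelin of the same section. In the 4 middle and old sections, myelin-rich spots with at least 1 UMI of Cst7, Itgax, Lgals3 or Gpnmb (90, 88, 137 and 157 spots) were set against those with none (184, 192, 160 and 129), with the section as a block. The 4 core members define the split and are not read. This contrast was not used to choose Lpl, Axl or the other genes. Of 10890 genes tested, 8.58% passed. Lpl rose in the spots with core members, with 22.7 against 7.08 CPM in middle 1, 14.6 against 7.87 in middle 2, 26.1 against 7.26 in old 1 and 38.0 against 8.28 in old 2 (log2 1.66, SE 0.22, edgeR adjusted p = 1.41e-09). The spots without core members thus held much the same Lpl in all 4 sections. Axl rose by less, with 49.0 against 33.3, 39.4 against 32.6, 59.0 against 35.7 and 74.6 against 39.1 CPM in the same order (0.63, SE 0.12, adjusted p = 4.59e-05). The direction was the same in 4 of 4 sections for both genes. Lpl passed in every alternative (log2 1.49 to 2.22), and Axl in every one but DESeq2 (adjusted p = 0.0997, with a range over the alternatives of 3.59e-05 to 0.0997). Ch25h had too few UMIs to be tested.

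Of the disease-associated list 19 of 28 genes tested rose in the spots with core members and none fell (median log2 0.56), with Tyrobp at 0.85, Trem2 at 0.61 and Apoe at 0.42. Of the homeostatic list 7 of 17 rose, including Cx3cr1 (0.63), while P2ry12 had 0.17 (adjusted p = 0.479 in edgeR) and Tmem119 0.26 (adjusted p = 0.230). Of the partners 7 of 21 rose, including Ctsc (0.77) and Itgb2 (0.74). Mbp, a main myelin protein gene, was level between the 2 kinds of spot (log2 −0.03). The spots with core members were deeper, with median UMIs of 18113, 15113.5, 11045 and 13130 against 14212, 13502, 8966.5 and 9277.

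The largest changes in that contrast were not in microglia genes. Ccdc153 (log2 3.91), Tmem212 (3.72) and Rsph1 (2.94), which belong to motile cilia and mark ependymal cells, rose most among genes of at least 20 CPM, together with Mia (3.13), and Cd74 rose by 1.58. The genes that fell most were neuronal, led by the striatal genes Rasd2 (−1.25), Arpp21 (−0.92) and Pde10a (−0.91). The summed ependymal markers in spots with core members were 3.28 to 10.2 times those in spots without, over the 4 sections. The corresponding ratio was 2.14 to 15.2 for choroid plexus and 0.413 to 0.964 for striatal markers. The list counts given for this contrast include the border spots. The contrast was also fitted without these spots, and the list counts of that fit are not reported here. By single core member, ependymal markers in old 2 stood at 290 CPM in myelin-rich spots with Lgals3 and 81.7 in those without, at 268 against 102 for Gpnmb, at 188 against 135 for Cst7, and at 154 against 153 for Itgax. In old 1 they stood at 464 against 91.8 for Lgals3, 259 against 163 for Gpnmb, 244 against 155 for Cst7 and 274 against 167 for Itgax. Spots with Lgals3 had the widest gap in both old sections. With the border spots left out 297 genes passed in place of 934, and with spots defined by Cst7 or Itgax alone 287 passed. Lpl and Axl passed in both.

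Over 12 points (6 sections, each with its myelin-rich and other spots), the 4 core members and Axl followed one pattern and Lpl and Ch25h did not. Pearson's r of log2(CPM + 1) between a member and the mean of the others was 0.92 for Cst7, 0.97 for Itgax, 0.96 for Lgals3, 0.97 for Gpnmb and 0.94 for Axl, against 0.36 for Lpl and 0.16 for Ch25h. The points share sections and depth, so these are descriptions. The members were also chosen on levels by age and spot set, so likeness among them is partly built in and nothing is read from it. The non-members with the most similar pattern among 11397 genes with a mean of at least 5 CPM were Hmox1 (r = 0.99), Hexa (0.98), Fcgr2b, Ctsd, Nckap1l, Mmadhc, Lyz2, Cd68, Nubp1 and Tnfrsf1a (0.98). As a description of levels only, Cst7, Itgax, Lgals3 and Gpnmb followed the label of a disease-associated microglia set in the myelin of these sections. Lpl followed it there alone and Axl followed it weakly. Ch25h, lower in old than in young whole sections, did not, though its old level was higher in myelin-rich than in other spots.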

How the data were processed

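The authors deposited 1 matrix per section of unnormalized UMI counts, each gene by each spot. Space Ranger made them, version 1.3.1 per the file headers or 3.1 per the submitters' processing notes, which name mm10. Spots under 500 UMIs were left out (1 each in middle 2 and old 2). The counts were summed per section over all, myelin-rich and other spots and tested with edgeR 4.0.16 (R 4.3.3; TMM, filterByExpr, robust quasi-likelihood with the legacy dispersion, Benjamini-Hochberg over all genes, two-sided, called under an adjusted p of 0.05); DESeq2 1.42.0 was an alternative. The scripts were tested on simulated data. With 2 sections per age, p-values measure the spread between these sections only, and intervals (95%, exact Poisson or binomial) cover counting error only.

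Members, gene lists and tests were chosen with earlier results of these data known. Named were all members, preset members of each list, and per list, contrast and direction up to 3 called genes of largest change with at least 10 CPM; for the spots with core members, the 8 largest per direction with at least 20 CPM; for similarity, the 10 largest r. Fcrls, Csf1r and other called genes named beyond this complete a count of 5 or fewer. The ependymal list, the border-spot and the Cst7 or Itgax alternatives were chosen after seeing the data. Thinning drew UMIs without replacement with a fixed seed (numpy 2.4.6). Values of some genes of these lists are not reported here.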

Additional observations from a re-analysis of the deposited data

Results flagged for a closer look

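Of the genes tested outside the members, 11 named ones changed with age by different amounts in myelin-rich and in other spots of the same sections, by the test of the difference itself (edgeR, section as a block, adjusted p under 0.05). In each of them the old against young log2 change was larger in myelin-rich spots, by the amounts given here. Fcrls, Cd44, Cd74 and Abca1 had been named for a called change in myelin-rich spots, and only genes whose difference passed are listed. The choice thus favoured this direction, and nothing is read from its being shared.

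Of the disease-associated list these were Trem2 (1.03, SE 0.13, edgeR adjusted p = 4.81e-07), its adaptor Tyrobp (0.90, SE 0.11, adjusted p = 5.43e-07), Apoe (0.66, SE 0.08, adjusted p = 4.03e-07) and the lysosomal gene Cd68 (1.28, SE 0.20, adjusted p = 6.03e-05). Of the homeostatic list they were Fcrls (1.21, SE 0.18, edgeR adjusted p = 2.33e-05) and Cx3cr1 (0.70, SE 0.17, adjusted p = 0.0139).

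Of the partners they were Itgb2 (1.19, SE 0.28, edgeR adjusted p = 0.00896), Ctsc (1.23, SE 0.27, adjusted p = 0.00557) and Cd44 (1.33, SE 0.36, adjusted p = 0.0337). The invariant chain Cd74 had 2.30 (SE 0.33, edgeR adjusted p = 6.83e-06) and the cholesterol exporter Abca1 0.73 (SE 0.16, adjusted p = 0.0039).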

How the results depend on the processing

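No old against young value that passed the test changed sign. Small values that did not pass did: Lpl in whole sections (−0.10) was 0.01 without young 2, Axl in other spots (0.04) was −0.02 without old 2, and P2ry12 in myelin-rich spots (−0.04) was 0.09 with a fixed myelin share. The fitted myelin-rich against other change of Itgax in young, on 3 myelin-rich UMIs, ranged from −4.72 to 3.29 over its alternatives. Between old and young, DESeq2 called 194 genes in whole sections against 29 by edgeR, 149 against 397 in myelin-rich spots, 110 against 21 in other spots, 172 against 376 for the difference and 214 against 934 for spots with core members. DESeq2 called 4 members in whole sections against 2, and 3 in other spots against 1; it gave no adjusted p for 6 of 7 members in myelin-rich spots, so no count is given there. Without the filter on low counts the genes called were 113, 699 and 67 in whole sections, myelin-rich and other spots, with 2 members in other spots. With the slide as a block they were 7, 178 and 6, with 1 member in whole sections and 1 partner in myelin-rich spots. A newer quasi-dispersion gave 186 for the difference.

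With the fifth of spots of largest myelin share as myelin-rich, 152 genes passed there, 36 for the difference, 1 member for the difference, 11 of the disease-associated list and 1 partner. With the top twentieth 2 members passed for the difference and 3 partners in myelin-rich spots. Without border spots the other spots gave 12, the difference 680 and the spots with core members 297. Spots thinned to 5000 UMIs gave 217 genes for the core contrast, and Cst7 or Itgax alone 287.

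Leaving out 1 section in turn (a lone section is then assumed to vary like the other ages) gave 6 to 75 genes and 0 to 2 members in whole sections, 134 to 498 and 5 to 6 in myelin-rich spots, 3 to 106 and 0 to 2 in other spots, and 202 to 693 and 2 to 4 for the difference. It gave 479 to 918 genes for the core contrast, 12 to 18 of the disease-associated list, 3 to 6 homeostatic genes and 1 to 6 partners. The lowest counts came without old 2 in whole sections, myelin-rich and other spots. No member passed in whole sections without young 1, middle 1 or middle 2. The cause of these shifts was not tested.

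Sections with the same replicate number had correlated deviations in some comparisons only. Between ages r ranged from −0.03 to 0.10 in myelin-rich spots. In whole sections it was 0.08 for young and middle, 0.32 for young and old and 0.46 for middle and old. In other spots it was 0.07, 0.34 and 0.48. For the middle and old sections replicate and slide have the same numbers, so the 2 cannot be told apart there. The replicate block gave 21, 427 and 16 genes called in whole sections, myelin-rich and other spots, with 1 member in whole sections. Of the members' calls, Cst7 held in 8 and Itgax in 5 of 12 alternatives in whole sections, Axl in 11 of 16 in myelin-rich spots and Gpnmb in 9 of 13 for the difference.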
